A study of Mus musculus with 8 samples.

Results

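The comparison described here is hemin plus 4-octyl itaconate (4-OI) against hemin alone in primary cortical neurons of C57BL/6 mice, measured by RNA sequencing. It covered the genes with an FPKM (fragment number relative to transcript length and library size) of 1 or more in 2 or more of the 4 libraries of these groups, 13475 of the 19417 genes in the deposited table (69.4%). Of these genes 12704 reached 1 in all 4 libraries, 121 passed through the Hemin libraries alone and 37 through the Hemin+4-OI libraries alone. The second highest of the 4 values lay between 1 and 1.05 for 88 genes inside the limit and between 0.95 and 1 for 86 genes outside it. Over 24 h the cultures were exposed to hemin at 50 µM, to 4-OI at 10 µM, to both at these doses, or to DMSO as vehicle, and each group had 2 of the 8 libraries. The groups are called DMSO, 4-OI, Hemin and Hemin+4-OI, and all cells were wild type as far as the labels say. The labels gave each library a replicate number but did not say that the replicates came from separate cultures, so p-values measure the spread between these libraries, which may be technical. The descriptions of both DMSO libraries carry the same code with different suffixes, although their titles number them separately, so it was not established that they are separate samples. Their difference is given below, and leaving out either one gave no gene that passed in any comparison. The question was which transcripts differ when 4-OI accompanies hemin, and whether any such difference is also seen when 4-OI is given alone.

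Hemin is the oxidised form of heme, the iron-containing pigment released from hemoglobin after bleeding, and cells degrade it with heme oxygenase, encoded by Hmox1, and store the released iron in ferritin, made of Fth1 and Ftl1 chains. Itaconate is made from the tricarboxylic acid cycle intermediate aconitate by the enzyme encoded by Acod1 in activated macrophages, and 4-OI is an ester that enters cells. It alkylates cysteines of KEAP1, the protein that marks the transcription factor NRF2 (Nfe2l2) for degradation, so that NRF2 can act on antioxidant genes. Heme itself also relieves these genes by binding BACH1, their repressor.

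The 2 Hemin libraries stood apart from each other more than any other pair of replicates. The median absolute difference of a gene in log2(FPKM + 1) was 0.304 between them, against 0.0946 between the Hemin+4-OI libraries, 0.0888 between the DMSO libraries and 0.121 between the 4-OI libraries. Hemin replicate 2 lay near the Hemin+4-OI libraries (0.140 and 0.142), and Hemin replicate 1 lay far from them (0.275 and 0.271). In a principal component analysis of the 4 libraries the first component held 71.9% of the variance and set Hemin replicate 1 at -38.3 against 11.8 to 13.8 for the others. The second component held 17.4% and set Hemin replicate 2 (-17.6) against the Hemin+4-OI pair (8.28 and 9.82). Estimated depth was similar, 9.7 to 10.5 megafragments. Where FPKM values are printed below, each Hemin library is therefore given separately. Log2 differences and list medians with no library named are taken against the mean of the 2 Hemin libraries.

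The neuronal label was checked against marker genes. Tubb3, the neuronal beta-tubulin, stood at 1179 and 1178 FPKM in DMSO and 1141 and 1121 in 4-OI, and at 66.9 and 63.6 in Hemin and 77.2 and 80.3 in Hemin+4-OI. The summed FPKM of 19 pan-neuronal genes was 8438 to 9151 without hemin and 3101 to 3377 with it. Astrocyte markers (17 genes) summed to 6063 in Hemin replicate 1 and 2591 to 2670 in the other hemin-treated libraries. Microglia and macrophage markers (17 genes) summed to 904 there and 289 to 313 in the others, so both Hemin+4-OI libraries had the glial levels of Hemin replicate 2. Fibroblast and meningeal markers summed to 669 against 460 to 464, oligodendrocyte lineage markers to 131 against 67.6 to 69.0, and endothelial markers to 9.7 to 15.2, with Ly6c1 at 0 in all hemin-treated libraries. In such bulk samples fewer cells of a type and less RNA per cell cannot be told apart.

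Most transcripts stood at nearly the same level in Hemin+4-OI as in Hemin replicate 2. Below both Hemin libraries were, among others, Ttr of the choroid plexus, interferon-stimulated genes such as Gbp2 and Ddx58, and fibroblast and astrocyte genes. Above both were 13 of 19 heat shock genes (7 to 13 under the 3 other scalings), 15 of 28 ATF4 targets, 17 of 30 proteasome subunits and 14 of 25 immediate-early genes, beside 14.5% of all genes. Against Hemin replicate 2 alone the medians of these lists were 0.09 to 0.18. The chaperone Hspa5 and the neuropeptide gene Cort were also above both. The antioxidant targets Hmox1, Nqo1 and Srxn1 lay between the 2 Hemin libraries. These are descriptions of levels, since no gene passed the test with all libraries.

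No gene passed an adjusted p of 0.05 (limma on log2(FPKM + 1), Benjamini-Hochberg over 13475 genes), 0.0% of those tested. The lowest adjusted p was 0.23, and 1202 genes (8.92%) had an unadjusted p under 0.05. This fit shares its estimate of spread over all groups, although the Hemin libraries differed more than other replicates, so it understates their spread. With only the Hemin and Hemin+4-OI libraries in the limma fit, 410 genes had an unadjusted p under 0.05 and 0 passed. With 2 libraries against 2, an exact permutation test of one gene cannot go below p = 0.333. Both Hemin+4-OI libraries lay above both Hemin libraries for 1948 genes (14.5%) and below both for 2739 genes (20.3%). Together these were 4687 genes (34.8%). That is near the share of 0.333 that 2 libraries against 2 would give with no group difference. These gaps were narrow, with medians of 0.078 and 0.095 on the log2 scale, and 126 genes above and 405 below were separated by at least 0.25. The split depended on scaling, with 2605 above and 2168 below after median-of-ratios scaling and 2553 and 1974 after quantile normalization. The median log2 difference of all genes was -0.029.

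Taken one Hemin library at a time, the comparison gave unlike counts. Against Hemin replicate 1 alone, 1888 genes were higher (14.0%) and 2638 lower (19.6%) at an adjusted p under 0.05 in limma. Against Hemin replicate 2 alone, 1 gene was higher (0.00742%) and 2 were lower (0.0148%). The lone library in such a fit is assumed to vary like the replicates of the other groups. This was not met, since the Hemin libraries differed by a median of 0.304, against 0.0888 to 0.12 in the other groups. Calls and adjusted p-values from fits without 1 Hemin library, here and below, therefore rest on an understated spread. Of all genes, 70.8% were nearer to Hemin replicate 2, and 49.3% had opposite signs against the 2 libraries. At least 2-fold differences numbered 471 against replicate 1 and 34 against replicate 2.

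**Figure D1:**
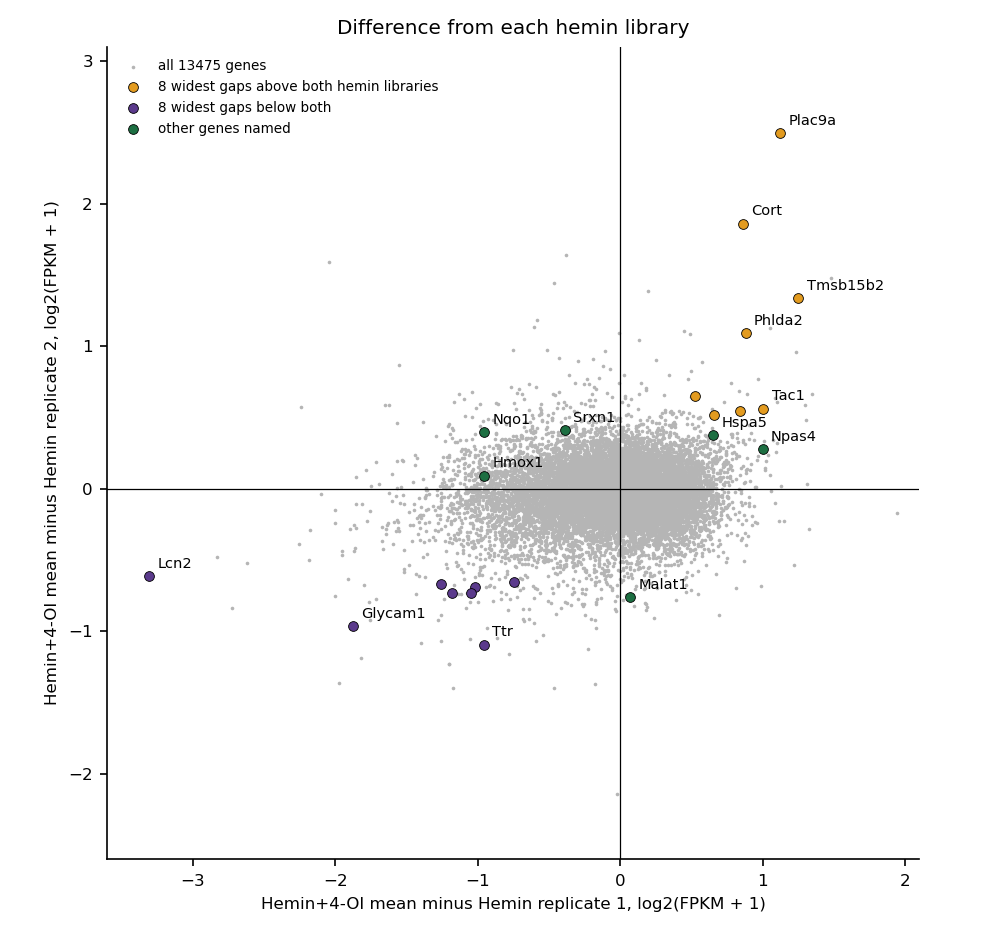
Difference of the Hemin+4-OI mean from Hemin replicate 1 (horizontal axis) and from Hemin replicate 2 (vertical axis) in log2(FPKM + 1), with 1 point per gene for 13475 genes and named genes coloured. The cloud is wider along the horizontal axis, where 471 genes lie at least 1 log2 unit from 0, than along the vertical axis, where 34 do, and Hmox1, Nqo1 and Srxn1 lie left of the vertical line and above the horizontal one.

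Ttr, which encodes transthyretin, the thyroxine and retinol carrier that choroid plexus secretes, had the lowest p of all genes. It stood at 152 and 167 FPKM in Hemin and at 71.8 and 83.9 in Hemin+4-OI, a log2 difference of -1.02 ± 0.12 with an adjusted p of 0.23 in limma. The difference was -0.96 against Hemin replicate 1 and -1.09 against replicate 2, so it was alike against both. With 4-OI alone the levels were 40.3 and 49.1 FPKM against 73.4 and 79.1 in DMSO, a difference of -0.76 ± 0.12. Folr1, the folate receptor of choroid plexus, stood at 4.69 and 5.12 in Hemin and 3.11 and 2.91 in Hemin+4-OI (-0.56 ± 0.16), and at 1.57 and 1.56 in DMSO and 1.44 and 1.10 in 4-OI. The levels of Foxj1, the master regulator of motile cilia, were 91.2 and 40.7 and 36.6 and 38.5 FPKM in the hemin-treated groups. Enpp2, the lysophospholipase autotaxin, stood at 9.92 and 9.52 and 8.46 and 9.33. All 4 choroid plexus genes tested, of 8 listed, were below both Hemin libraries and, with 4-OI alone, below both DMSO libraries. The shares of all genes were 20.3% and 14.9% (20.2% lay above both DMSO libraries), and no library is common to these comparisons. The list's median was -0.62 under hemin and -0.20 without it, against -0.03 and 0.01 for all genes. Under hemin it was -0.73 against Hemin replicate 1 and -0.36 against replicate 2. In the same order the differences were -0.51 and -0.61 for Folr1, -1.26 and -0.11 for Foxj1, and -0.14 and -0.09 for Enpp2. Foxj1 and Enpp2 were thus near Hemin replicate 2, unlike Ttr. Its summed FPKM was 259 and 224 in Hemin, 122 and 136 in Hemin+4-OI, 98.0 and 104 in DMSO, and 62.9 and 70.2 in 4-OI. After each of the 3 other scalings 3 of the 4 genes remained below both Hemin libraries.

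Glycam1 and 6 further genes also had the widest gaps below both Hemin libraries. Glycam1, a mucin-like ligand of L-selectin, stood at 24.03 and 12.3 FPKM in Hemin and 5.52 and 6.13 in Hemin+4-OI, with 5.84 and 8.52 in DMSO. Lcn2, the siderophore-binding lipocalin of reactive glia, stood at 371 and 56.5 and 37.8 and 35.4. Its Hemin libraries differed more from each other than replicate 2 did from Hemin+4-OI (-3.31 against replicate 1, -0.61 against replicate 2). Rln1, encoding relaxin, was at 10.6 and 8.33 in Hemin and 4.46 and 4.77 in Hemin+4-OI. Rfx4, a transcription factor of neural progenitors and cilia, was at 7.01 and 4.86 and 2.28 and 2.79 FPKM. Elk3, an ETS factor, was at 6.43 and 4.93 and 2.90 and 2.45, and one DMSO library lists it at 0. Tmem216, a protein of the ciliary transition zone whose gene adjoins another transcript, was at 14.5 and 9.32 and 5.64 and 5.32. Mthfsd, named for a folate enzyme domain, was at 6.67 and 6.18 and 3.54 and 3.60. In all 7 genes both Hemin libraries were above both DMSO libraries, and Mthfsd and Tmem216 in Hemin+4-OI were below both DMSO libraries.

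Of the 5 named genes with the lowest p among those lower in Hemin+4-OI, 3 have not been described yet. Sh3bgrl3, a small thioredoxin-like protein, stood at 99.9 and 77.2 FPKM in Hemin and 54.4 and 59.6 in Hemin+4-OI, below the 98.2 and 97.7 of DMSO. Ptger1, a prostaglandin E2 receptor gene whose reads may be shared with other transcripts, stood at 6.56 and 7.47 and 4.28 and 3.67. Mettl26 had equal Hemin libraries (14.5 and 14.5) and lower Hemin+4-OI libraries (6.88 and 9.48), with log2 differences of -0.77 ± 0.16, -0.69 ± 0.14 for Ptger1 and -0.62 ± 0.12 for Sh3bgrl3. Each had an adjusted p of 0.547 in limma.

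Genes above both Hemin libraries included secreted peptides and synaptic proteins. Cort, encoding the neuropeptide cortistatin, stood at 2.43 and 0.72 FPKM in Hemin and 5.12 and 5.36 in Hemin+4-OI, with 2.88 and 2.94 in DMSO. Its log2 difference was 1.36 ± 0.29, with 0.86 against Hemin replicate 1 and 1.86 against replicate 2. The Hemin libraries themselves differed by 0.996 for Cort, at low levels. Tac1, the precursor of substance P, stood at 11.7 and 16.3 and 23.1 and 25.97 and below 1 FPKM without hemin. Nptx2, a secreted pentraxin that clusters AMPA receptors, stood at 13.4 and 16.6 and 24.3 and 25.2, against 1.93 and 2.11 in DMSO, a difference of 0.69 ± 0.15. For these peptides and for Nptx2 the 2 Hemin+4-OI libraries were close to each other and above both Hemin libraries.

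Phlda2, an imprinted growth-restricting gene, was listed at 0 in all 4 libraries without hemin, at 3.03 and 2.48 FPKM in Hemin and at 6.08 and 6.76 in Hemin+4-OI (0.98 ± 0.16). Plac9a, a small secreted protein gene, was at 2.39 and 0.31 and 6.46 and 6.32. Tmsb15b2, an actin-binding thymosin whose reads may be shared with a neighbouring copy, was at 1.89 and 1.72 and 6.74 and 5.10, and at 7.98 and 6.31 in DMSO and 5.74 and 2.98 in 4-OI. Dusp5, a nuclear ERK phosphatase, was at 10.6 and 9.64 and 16.4 and 15.03. Zrsr1, an imprinted splicing factor gene within Commd1, was at 7.87 and 8.78 and 13.2 and 12.7, and Mrpl47, a mitochondrial ribosomal protein, at 13.8 and 14.4 and 21.5 and 20.3. The adjusted p of every gene in this paragraph was 0.547 in limma, so none passed.

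**Figure D2:**
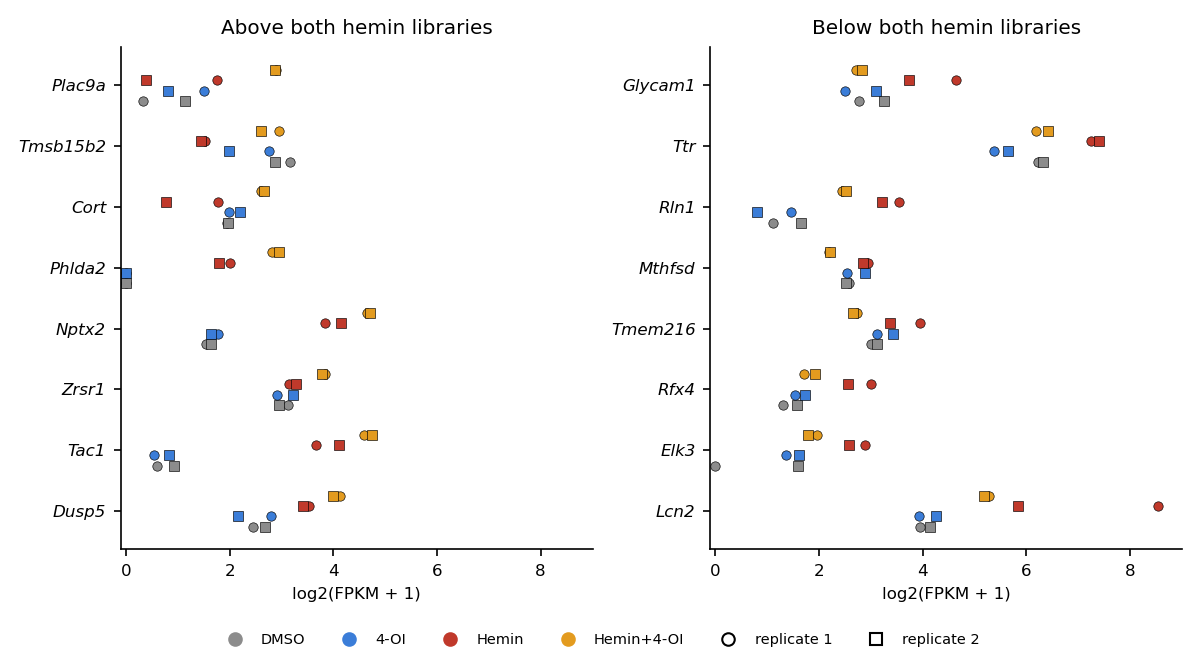
Level in log2(FPKM + 1) (horizontal axis) of the 8 genes with the widest gap above (left) and below (right) both Hemin libraries, with 1 symbol per library, coloured by group and shaped by replicate number. The orange Hemin+4-OI symbols lie to the right of both red Hemin symbols in the left panel and to the left of both in the right panel, and Lcn2 shows the largest distance between the Hemin libraries.

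The 3 genes that passed against Hemin replicate 2 alone were Cort, Malat1 and Mrgpra6, the last 2 named after their values were seen. Malat1, an abundant nuclear long noncoding RNA, stood at 112 and 199.97 FPKM in Hemin and 118 and 118 in Hemin+4-OI. The log2 difference was -0.76 against replicate 2 (adjusted p = 0.0179 in limma) and 0.07 against replicate 1, so the 2 Hemin libraries did not give the same answer. With 4-OI alone it stood at 142 and 135 FPKM against 90.7 and 83.3 in DMSO. Mrgpra6, a Mas-related receptor gene, stood at 64.9 and 103 in Hemin and 63.5 and 64.1 in Hemin+4-OI. The interaction, the change with 4-OI under hemin minus that without hemin, passed for no gene with all libraries (0.0%), 675 genes had an unadjusted p under 0.05 and the lowest adjusted p was 0.853. Without Hemin replicate 1 it passed for 4 genes, all negative, namely Malat1 (-1.42, adjusted p = 0.00218 in limma), Mrgpra6, Zfp781 and Snord116l2.

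The 32 gene lists, with 649 distinct genes, had no member past the threshold in either direction, as for the genes at large (0.0%), while 50 of the 614 members tested were higher and 46 lower at an unadjusted p under 0.05. They are therefore described by how many members lay outside both Hemin libraries, beside 14.5% above and 20.3% below for all genes.

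**Figure D3:**
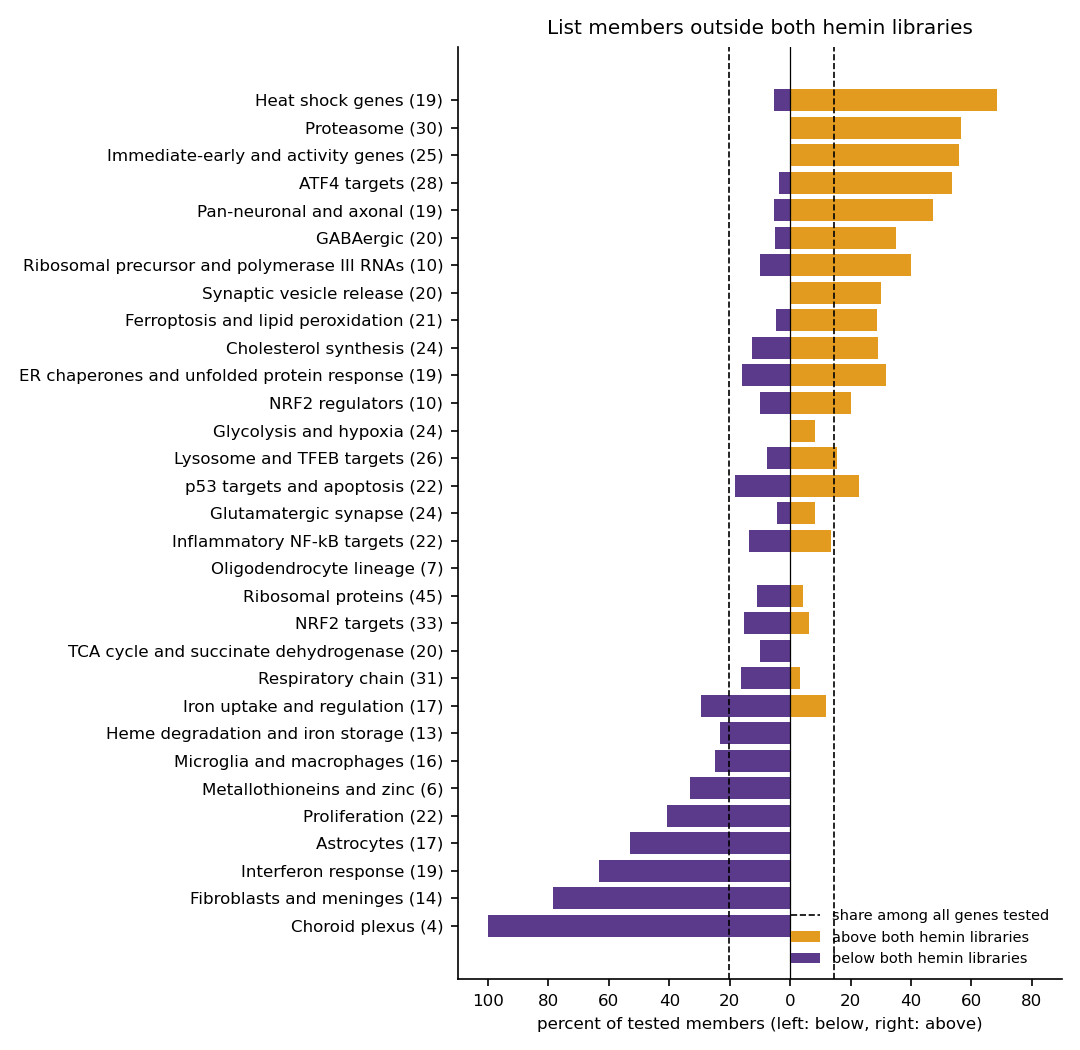
Percent of each list's tested members (number in brackets) with both Hemin+4-OI libraries above both Hemin libraries (right) or below both (left), and dashed lines at the shares of all genes, 14.5% and 20.3%. Heat shock genes reach 68.4% on the right, and interferon response genes 63.2% and all 4 choroid plexus genes lie on the left.

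NRF2 targets such as Hmox1 and Srxn1 stood above their DMSO levels with 4-OI alone and lay between the 2 Hemin libraries when 4-OI was given with hemin. Of 33 targets tested, 17 were above both DMSO libraries with 4-OI alone, against 20.2% of all genes, and 0 below. Under hemin 2 were above both Hemin libraries and 5 below, with a median of -0.18. Against Hemin replicate 1, 31 of 33 were lower (53.8% of all genes), with a median of -0.49. Against Hemin replicate 2, 27 were higher (44.7% of all genes), with a median of 0.13. The sign of the median thus differed between the 2 Hemin libraries. In 4-OI against DMSO no gene passed an adjusted p of 0.05 in limma (0.0%), and 162 genes had an unadjusted p under 0.05.

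Hmox1 stood at 18.8 and 20.01 FPKM in DMSO, 28.6 and 35.1 in 4-OI, 1564 and 755 in Hemin and 807 and 802 in Hemin+4-OI. The 2 Hemin libraries enclosed both Hemin+4-OI libraries, and the log2 difference was -0.43 ± 0.28 with an adjusted p of 0.603 in limma. Nqo1, the quinone reductase, stood at 2.34 and 1.86 in DMSO, 5.44 and 3.55 in 4-OI, 32.2 and 11.96 in Hemin and 16.2 and 15.97 in Hemin+4-OI. Srxn1, sulfiredoxin, which restores oxidised peroxiredoxins, stood at 20.1 and 20.9, 33.6 and 36.2, 145 and 83.1 and 112 and 109.6 in the same order. Its difference was 0.01 ± 0.21, made of -0.39 against Hemin replicate 1 and 0.41 against replicate 2. For each of these 3 genes the hemin-treated libraries were all above those with 4-OI alone, and Hemin+4-OI lay within the span of the Hemin libraries.

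Gclm, the modifier subunit of glutathione synthesis, stood at 105 and 69.97 FPKM in Hemin and 75.7 and 81.3 in Hemin+4-OI. The cystine importer Slc7a11 stood at 16.4 and 15.1 and 15.4 and 16.8, and thioredoxin reductase Txnrd1 at 165 and 149 and 161 and 165. The log2 differences of these 3 genes, -0.13 ± 0.18, 0.03 ± 0.14 and 0.06 ± 0.09, were smaller than or near their standard errors. Outside both Hemin libraries were Sqstm1, the autophagy receptor p62, at 462 and 444 and 544 and 524, and Idh1, cytosolic isocitrate dehydrogenase, at 60.4 and 60.9 and 70.4 and 69.8, both above. Prdx6, a peroxiredoxin with phospholipase activity, was below at 249 and 129 and 103 and 115, as was Slc48a1, the heme transporter, at 83.6 and 49.9 and 44.7 and 44.6, whose gene overlaps Hdac7. The antioxidant response element, searched as TGACNNNGC on both strands in the 250 bases before the gene start, was present in 26.5% of the RefSeq promoter windows of NRF2 targets and 10.2% of all 32851 windows. Of the 8 targets that carried it 0 were above both Hemin libraries and 1 was below.

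NRF2 itself, Nfe2l2, stood at 39.6 and 24.2 FPKM in Hemin and 22.6 and 19.8 in Hemin+4-OI, below both Hemin libraries (-0.53 ± 0.21). Keap1 stood at 20.3 and 14.98 and 16.9 and 15.8, and Bach1 at 13.8 and 26.3 and 24.8 and 23.04, each between the Hemin libraries. Maff, a small MAF partner of NRF2, was above both at 29.4 and 36.5 and 42.8 and 44.9, as was Cul3, the ubiquitin ligase scaffold of KEAP1, at 33.2 and 36.6 and 39.04 and 37.9. Of the 10 genes of this list tested, 2 were above, 1 below and the median was -0.001, a sign that turns under the 3 other scalings (0.007 to 0.044).

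Iron handling was described by the genes of heme degradation and storage. Ftl1, the ferritin light chain and the gene with the highest FPKM in every hemin-treated library, stood at 5908 and 3258 FPKM in Hemin and 2738 and 2973 in Hemin+4-OI, below both (-0.62 ± 0.25). Fth1 stood at 2408 and 1292 and 1418 and 1455, within the Hemin range. Slc40a1, the iron exporter ferroportin, stood at 17.9 and 8.26 and 9.30 and 9.39. Of 13 genes tested, 0 were above both Hemin libraries and 3 below (23.1%), which is near the 20.3% of all genes. The list's median was -0.56 against Hemin replicate 1 and 0.11 against replicate 2.

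For iron uptake and heme synthesis, 2 of 17 genes were above and 5 below. Tfrc, the transferrin receptor, was above at 28.3 and 33.4 and 35.5 and 35.2 FPKM, and Steap3, a ferric reductase, was below at 4.01 and 2.79 and 1.78 and 1.81. Of the genes of lipid peroxidation and ferroptosis, 6 of 21 were above and 1 below, beside 14.5% and 20.3% of all genes. Under the 3 other scalings 5 to 6 were above and 0 to 4 below. The list's median was -0.10, with -0.24 against Hemin replicate 1 and 0.06 against replicate 2. Above both were Ptgs2 at 3.71 and 4.07 and 6.06 and 5.72 and Acsl4, which activates polyunsaturated fatty acids, at 12.2 and 15.2 and 16.6 and 16.9. Gpx4, the lipid hydroperoxide reductase, stood at 288 and 183 and 214 and 220.1, between the Hemin libraries. The metallothioneins Mt1 (823 and 486 and 458 and 471) and Mt2 (806 and 484 and 399.9 and 443) were below both Hemin libraries, with log2 differences of -0.07 and -0.20 against the nearer one, replicate 2. Mt3, the metallothionein of brain, lay between them (932 and 351 and 367 and 379), and of the 6 genes of this list 0 were above both and 2 below.

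**Figure D4:**
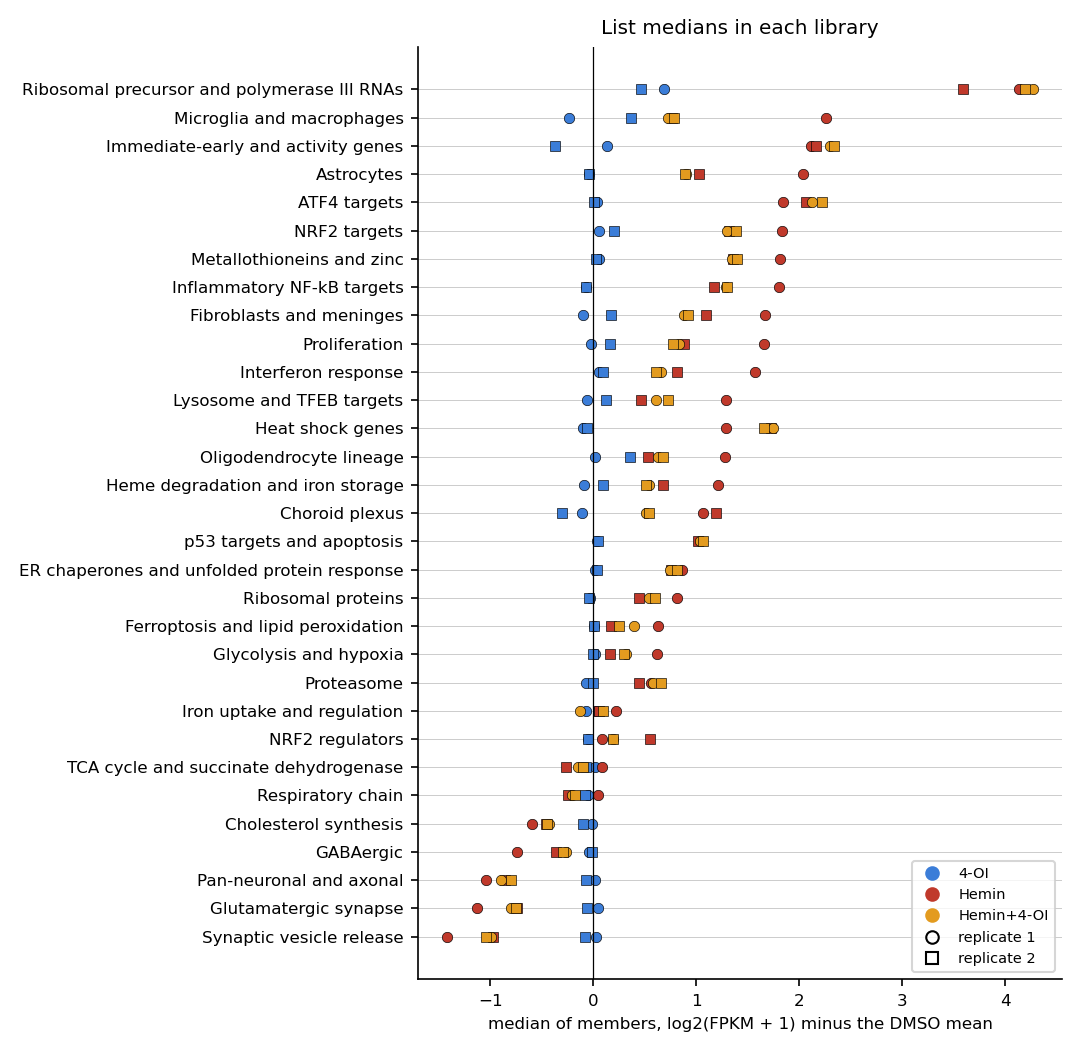
Median of each list's tested members in log2(FPKM + 1) minus the DMSO mean (horizontal axis), with 1 symbol per library of 4-OI, Hemin and Hemin+4-OI, and lists ordered by Hemin replicate 1. The medians of astrocyte and microglia lists put Hemin replicate 1 (2.04 and 2.26) apart from the other hemin-treated libraries (0.73 to 1.03), and in the heat shock list both Hemin+4-OI medians (1.75 and 1.66) lie near that of Hemin replicate 2 (1.73) and above replicate 1 (1.29).

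Genes of protein folding, its stress responses and protein degradation included many that lay above both Hemin libraries. This held for 13 of 19 heat shock genes (68.4%, median 0.23), for 15 of 28 ATF4 targets (53.6%, median 0.23) and for 17 of 30 proteasome subunits (56.7%, median 0.13), beside 14.5% of all genes. Over the 3 other scalings the heat shock count was 7 to 13, while the ATF4 count stayed at 13 to 15 and the proteasome count at 17 to 23. Against Hemin replicate 2 alone the medians were 0.09, 0.12 and 0.18, and 0 members of these lists passed. With 4-OI alone, 10 of 19 heat shock genes, 3 of 28 ATF4 targets and 7 of 30 subunits were below both DMSO libraries, beside 14.9% of all genes.

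Among heat shock genes, Dnajb1, the HSP40 co-chaperone, stood at 49.5 and 75.8 FPKM in Hemin and 88.3 and 89.8 in Hemin+4-OI, against 22.2 and 22.1 in DMSO. Hspa1a and Hspa1b, near-identical HSP70 genes whose reads may be split between them, stood at 655 and 955 and 529.5 and 762 in Hemin. Their Hemin+4-OI levels of 986 and 1005 and 825 and 842 were above both, and Hspa1l next to them stood at 96.4 and 131 in Hemin and 152 and 154 in Hemin+4-OI. Stip1, which couples HSP70 to HSP90, stood at 149 and 153 and 177 and 179. The small heat shock protein Cryab, which is abundant in astrocytes, was the one member below both, at 54.97 and 37.9 and 31.1 and 27.8.

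ATF4 targets are the amino acid and stress genes of the integrated stress response. Asns, asparagine synthetase, stood at 70.5 and 107 FPKM in Hemin and 126 and 125 in Hemin+4-OI, a log2 difference of 0.53 ± 0.17. Stc2, a secreted glycoprotein, stood at 20.5 and 29.4 and 35.9 and 34.1, and Slc7a5, a leucine transporter, at 37.6 and 57.9 and 64.5 and 65.5. Ppp1r15a, the GADD34 subunit that reverses eIF2 phosphorylation, stood at 45.04 and 56.1 and 61.7 and 66.1, and Ddit3, encoding CHOP in a gene that overlaps Mbd6, at 46.4 and 73.7 and 76.6 and 84.9. In each of these genes Hemin replicate 1 was the lowest hemin-treated library and Hemin+4-OI was closer to replicate 2.

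Of the proteasome subunits, Psmc6 of the ATPase ring stood at 96.3 and 94.2 FPKM in Hemin and 119 and 116 in Hemin+4-OI (0.30 ± 0.08), and Psmd14, the deubiquitinase of the lid, at 94.98 and 93.5 and 117 and 111. Psmb1 of the core stood at 155 and 135 and 173 and 172, and Psmd6 of the lid at 94.9 and 102 and 114 and 118. For Psmc6 and Psmd14 the Hemin libraries were close to each other, and the difference was as large against replicate 2 (0.32 and 0.28) as against replicate 1 (0.29 and 0.26). Of all 30 subunits, 29 were higher than in Hemin replicate 2 and 21 higher than in replicate 1, beside 44.7% and 46.2% of all genes. The list's medians were 0.18 and 0.05 in the same order.

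Hspa5 encodes BiP, the main HSP70 chaperone of the endoplasmic reticulum, and Pdia6 a disulfide isomerase that works with it. Their promoters are shown because both genes lay above both Hemin libraries and both carry the endoplasmic reticulum stress element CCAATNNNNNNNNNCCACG, printed in capitals in the 120 bases before the RefSeq gene start (GRCm38.p6). The Hspa5 window is chr2:34771970-34772089 on the plus strand and the Pdia6 window chr12:17266469-17266588 on the plus strand.
Hspa5: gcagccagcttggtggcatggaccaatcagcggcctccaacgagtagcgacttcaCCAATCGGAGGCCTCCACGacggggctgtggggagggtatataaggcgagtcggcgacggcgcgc
Pdia6: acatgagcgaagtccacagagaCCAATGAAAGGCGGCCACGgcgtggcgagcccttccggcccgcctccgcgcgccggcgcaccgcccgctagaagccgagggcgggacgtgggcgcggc
Hspa5, which overlaps Rabepk, stood at 311 and 376 FPKM in Hemin and 493 and 484 in Hemin+4-OI, with 151 and 142 in DMSO and 152 and 144 in 4-OI. The log2 difference was 0.51 ± 0.11 (0.65 against Hemin replicate 1 and 0.37 against replicate 2), with an adjusted p of 0.547 in limma. Pdia6 stood at 154 and 159 and 193 and 189 (0.28 ± 0.08), and its Hemin libraries were close to each other. Herpud1, a factor of ER-associated degradation, stood at 76.1 and 105 and 121 and 120.2, and the co-chaperone Dnajb9 at 36.8 and 45.3 and 53.3 and 50.03. Of the 19 genes of this list, 6 were above both Hemin libraries and 3 below, with a median of 0.08. The element, searched on both strands in the 250 bases before the start, was in 7 of the 16 windows of these genes and in 0.11% of all windows. Of the genes that carried it 3 were above both Hemin libraries and 1 was below.

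Among neuronal genes the larger part of the difference was against Hemin replicate 1. Of 25 immediate-early and activity-regulated genes 14 were above and 0 below (median 0.28), and of 19 pan-neuronal genes 9 were above and 1 below (median 0.22). The counts were 6 and 0 of 20 for synaptic vesicle release, 7 and 1 of 20 for GABAergic genes, and 2 and 1 of 24 for the glutamatergic synapse. Against Hemin replicate 2 alone the medians of these 5 lists were 0.15, 0.07, -0.02, -0.01 and -0.12, and against replicate 1 they were 0.41, 0.44, 0.49, 0.41 and 0.40. The lower astrocyte and microglial marker sums of Hemin+4-OI and Hemin replicate 2 moved with these levels, and their part in them was not tested.

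Npas4, a transcription factor induced by neuronal calcium entry, stood at 36.2 and 60.5 FPKM in Hemin and 74.5 and 72.3 in Hemin+4-OI, against 4.05 and 4.01 in DMSO. Bdnf, the neurotrophin, stood at 3.26 and 3.99 and 5.49 and 5.41, and Jun at 159 and 188 and 208 and 213. Atf3, a stress-induced partner of Jun, stood at 80.7 and 109 and 123 and 126, with both Hemin+4-OI libraries above both Hemin libraries. Of neuronal genes, Tubb3 was above both Hemin libraries by a small margin (0.27 ± 0.08). Eno2, the neuronal enolase, stood at 11.4 and 15.4 and 18.7 and 18.6, Elavl2, a neuronal RNA-binding protein, at 16.2 and 22.2 and 27.4 and 26.4, and the neurofilament Nefl at 34.02 and 44.95 and 52.7 and 52.4. Nefl differs from the others in that its DMSO level of 16.6 and 17.5 was below that of every hemin-treated library.

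Synaptotagmin 4, encoded by the activity-regulated Syt4, stood at 58.2 and 102 FPKM in Hemin and 119.99 and 121 in Hemin+4-OI, and the vesicle GTPase Rab3a at 75.9 and 86.5 and 98.6 and 94.7. Among GABAergic genes the vesicular GABA transporter Slc32a1 stood at 16.00 and 18.6 and 22.01 and 20.3. The neuropeptide Sst, somatostatin, is the close relative of Cort, and its promoter is shown because it holds the cAMP response element TGACGTCA (capitals) through which the activity-dependent factor CREB acts. The element starts with the same letters, TGAC, as the antioxidant element. The window is the 120 bases before the RefSeq gene start, chr16:23890845-23890964 on the minus strand of GRCm38.p6.
Sst: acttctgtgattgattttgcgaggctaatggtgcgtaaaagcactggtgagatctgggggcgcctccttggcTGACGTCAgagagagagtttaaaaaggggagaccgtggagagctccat
Sst stood at 100.1 and 101 FPKM in Hemin and 130.5 and 147 in Hemin+4-OI (0.46 ± 0.13), and at 121 and 130.1 in DMSO. The difference was 0.47 against replicate 1 and 0.45 against replicate 2, so both Hemin libraries gave the same value. Of the windows of immediate-early genes 3 of 33 held the element, against 1.55% of all windows, and of the 3 genes that carried it 1 was above both Hemin libraries and 0 below.

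Interferon-stimulated genes lay below both Hemin libraries in 12 of 19 cases (63.2%) and above both in 0, with a median of -0.56. They were lower than Hemin replicate 1 in 19 of 19 and lower than replicate 2 in 14 of 19, where 55.3% of all genes were lower, with medians of -0.97 and -0.15. The count was 9 to 13 under the 3 other scalings. Of the 19 genes, 3 reached the FPKM limit through the Hemin libraries alone and so had to lie below each of them. The counts and medians above, also those against each Hemin library, include these 3. Of the other 16, 9 were below both, with a median of -0.61. Gbp2, an interferon-induced GTPase, stood at 8.67 and 4.74 FPKM in Hemin and 3.25 and 2.29 in Hemin+4-OI, with 1.22 and 1.44 in DMSO and 0.90 and 1.48 in 4-OI. Irf7, an amplifier of type I interferon, is one of the 3, at 1.98 and 1.14 and 0.50 and 0.63. Ddx58, the RNA sensor RIG-I, stood at 3.71 and 3.13 and 2.15 and 1.84. These are low levels, and the log2 differences of -0.99 ± 0.27 for Gbp2 and -0.56 ± 0.16 for Ddx58 understate the ratios because of the added 1.

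The promoter of Gbp2 is shown because it holds the interferon-stimulated response element in its core form TTTCNNTTTC (capitals), in the 120 bases before the RefSeq gene start, chr3:142620543-142620662 on the plus strand of GRCm38.p6.
Gbp2: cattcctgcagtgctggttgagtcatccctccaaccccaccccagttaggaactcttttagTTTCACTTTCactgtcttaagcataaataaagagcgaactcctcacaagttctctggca
This core was in 10 of the 24 windows of interferon genes (41.7%) and in 2.98% of all windows. Of the 10 genes that carried it, some were not tested, 6 were below both Hemin libraries and 0 above. Below both were also 12 of the 19 tested genes of the list and 20.3% of all genes. The 6 were not cleared of genes that reached the FPKM limit through the Hemin libraries alone. The part of the element in these levels was not tested.

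Of the inflammatory NF-kB targets 3 were above both Hemin libraries and 3 below, of 22 tested. Il6, an inflammatory cytokine, was listed at 0 in every library without hemin, at 0.91 and 1.11 FPKM in Hemin and at 2.09 and 2.74 in Hemin+4-OI. Ptgs2, given above with the lipid peroxidation genes, was also above both Hemin libraries, and Icam1, an adhesion molecule, was below both at 15.6 and 12.5 and 10.7 and 10.2. Nfkbiz, an NF-kB cofactor gene, stood at 16.97 and 13.5 and 17.6 and 15.9, and Acod1, which makes itaconate itself, at 1.25 and 0.89 and 1.20 and 0.81, near the limit of detection. The list's median was -0.04 and turned to 0.02 under quantile normalization. It was -0.56 against Hemin replicate 1 and 0.14 against replicate 2, so the sign differed between the Hemin libraries.

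Markers of other cells had negative medians. Astrocyte genes were below both Hemin libraries in 9 of 17 cases (median -0.51) and fibroblast and meningeal genes in 11 of 14 (-0.36). Microglial genes were below both in 4 of 16 (-0.63) and genes of DNA replication and mitosis in 9 of 22 (-0.42). Each list had 0 above, and 20.3% of all genes were below both. The microglial share was near that of all genes, and 10 of these 16 genes were higher than Hemin replicate 2. Against Hemin replicate 2 alone the medians were -0.10, -0.13, 0.03 and -0.04, and against replicate 1 alone -0.985, -0.58, -1.30 and -0.80, so in each list the difference was larger against replicate 1. Of the summed marker levels given above, the astrocyte and microglial sums in Hemin+4-OI equalled or passed those of Hemin replicate 2.

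Gfap, the astrocyte intermediate filament, stood at 368 and 125 FPKM in Hemin and 105 and 108 in Hemin+4-OI. Aqp4, the water channel of astrocyte endfeet, stood at 53.99 and 22.5 and 19.5 and 20.03, and Sox9, their transcription factor, at 34.00 and 27.9 and 23.96 and 23.8. Cx3cr1, the fractalkine receptor of microglia, stood at 5.70 and 3.58 and 1.98 and 2.41, near its DMSO level of 1.72 and 2.31. In fibroblast genes the difference was of similar size against both Hemin libraries for Igf2 (-0.45 and -0.52), a growth factor of meninges and choroid plexus, and for Dcn, the proteoglycan decorin (-0.73 and -0.55). Igf2 stood at 7.63 and 8.09 in Hemin, 5.65 and 5.02 in Hemin+4-OI, 5.11 and 4.70 in DMSO and 3.27 and 2.92 in 4-OI, so it was lower with 4-OI both with and without hemin, as Ttr was. Mki67, the proliferation antigen, stood at 11.4 and 6.38 and 6.07 and 5.34, and Rrm2, a ribonucleotide reductase subunit, at 45.95 and 28.1 and 23.6 and 24.00.

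Metabolic genes were described by the same counts, to be read beside 14.5% above and 20.3% below for all genes. Enzymes of the tricarboxylic acid cycle, from which itaconate derives and whose succinate dehydrogenase it can inhibit, had 0 of 20 above and 2 below. Respiratory chain genes had 1 of 31 above and 5 below, and glycolytic genes 2 of 24 above and 0 below. Against Hemin replicate 1 the medians of these lists were -0.25, -0.24 and -0.30, and against replicate 2 they were 0.15, 0.16 and 0.07. Sterol synthesis genes had 7 of 24 above and 3 below, among them Insig1, the sterol sensor partner, at 22.2 and 19.7 FPKM in Hemin and 27.04 and 25.3 in Hemin+4-OI. Lysosomal genes had 4 of 26 above (15.4%) and 2 below. The proton pump subunit Atp6v1h was one of those above, at 82.95 and 94.2 and 119.5 and 113. The list's median was -0.26, with -0.64 against Hemin replicate 1 and 0.14 against replicate 2. Lower than replicate 1 were 21 of the 26 genes and higher than replicate 2 were 24, beside 53.8% and 44.7% of all genes. Of 22 genes of p53 response and apoptosis 5 were above and 4 below.

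The deposited table also lists ribosomal RNA. Rn28s1, the 28S ribosomal RNA entry, stood at 1844 and 1976 FPKM in Hemin and 2680.03 and 2618 in Hemin+4-OI, and at 247 and 219 in DMSO and 373 and 306 in 4-OI. Rn45s, the precursor, stood at 279.8 and 343 and 417 and 426, against 2.74 and 3.41 in DMSO and 4.98 and 4.90 in 4-OI. Both entries were above the matching group without 4-OI in both comparisons. Rn18s, the 18S entry, did so under hemin only, at 1121 and 1014 in Hemin and 1329 and 1339 in Hemin+4-OI, since its 4-OI libraries (1262 and 938) enclosed those of DMSO (1072 and 1099.7). Rmrp, the RNA of a nuclease that processes the precursor, was listed at 0 without hemin and stood at 17.8 and 10.9 and 22.9 and 19.7. Ribosomal RNA genes are repeated and their reads cannot be assigned to one copy. Of 45 ribosomal protein genes 2 were above both Hemin libraries and 5 below, counts that became 15 and 8 under quantile normalization.

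**Figure D5:**
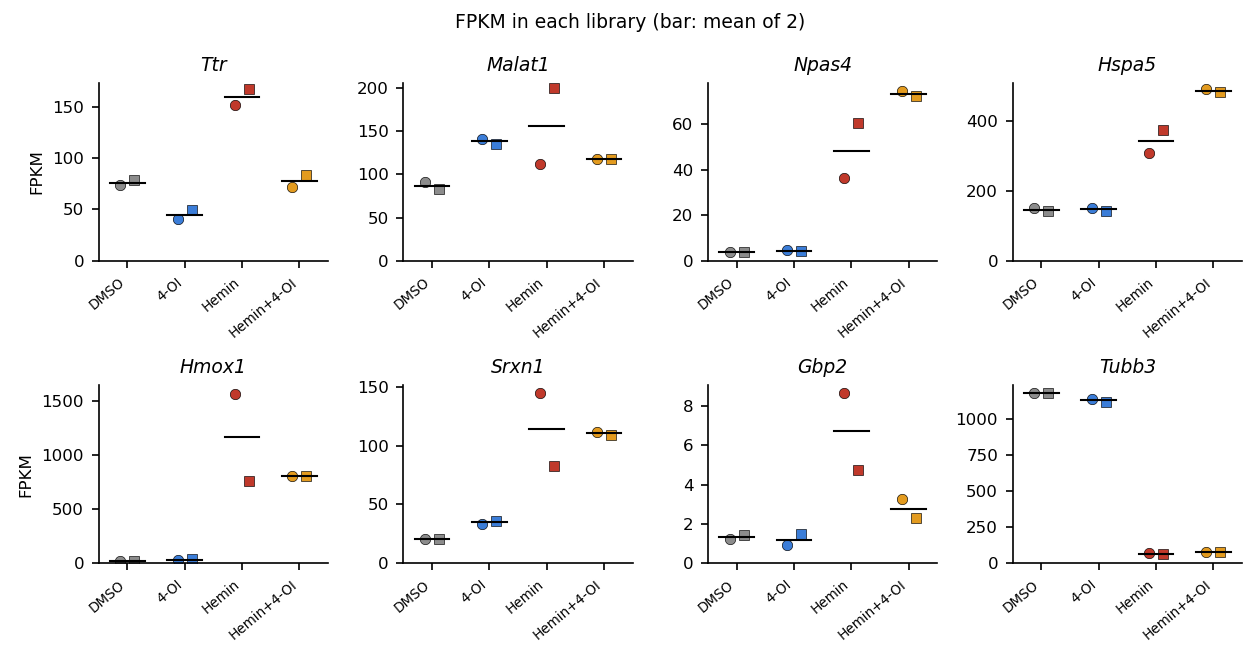
FPKM (vertical axis, from 0) of 8 genes in each library, with circles for replicate 1, squares for replicate 2 and a bar at the mean of 2 libraries. Ttr is lower with 4-OI in both pairs of groups, Malat1 lies between the Hemin libraries in Hemin+4-OI, Npas4 and Hspa5 lie above both, Gbp2 below both, and Hmox1 and Srxn1 between them, while Tubb3 is low in all hemin-treated libraries.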

How the data were processed

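RNA from 8 libraries (4 groups of 2) of mouse primary cortical neurons was sequenced, with groups taken from the sample titles. The authors deposited one table of FPKM values with 2 decimals. Per the submitters' processing notes, Bowtie2, RSEM and the mouse build mm8 were used to make it. Tool versions, gene annotation and strandedness are not given in the sources used. Of the entries 34.1% hold added transcripts, so reads of overlapping genes may not be separable. FPKM is relative to library and transcript composition and carries no read counts, so no count model was used. The steps of low values gave an estimated depth of 9.2 to 10.7 megafragments, with 75.5 to 79.8% of these values within 0.15 of a whole number.

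A linear model with 1 mean per group was fitted to log2(FPKM + 1) of the 8 libraries, using the limma package (3.58.1) under R 4.3.3 (eBayes with intensity trend, 4 residual degrees of freedom, prior 4.29), two-sided, with Benjamini-Hochberg adjustment over 13475 genes and a threshold of 0.05. The fit was tested on simulated data in which each gene had the same spread in every group. The wider spread of the Hemin libraries was therefore not covered by that test. Values after ± are standard errors from this fit. Log2 differences are on the log2(FPKM + 1) scale, which understates changes of low genes. Contrasts were Hemin+4-OI against Hemin, 4-OI against DMSO and their difference (interaction). A gene is called above or below both libraries of a group when its values do not overlap. Tables and plots used Python 3.11.15, numpy 2.4.6, pandas 2.3.3 and matplotlib 3.10.9.

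Named genes were, at a mean FPKM of at least 5, the 5 with the lowest p in each direction and the 8 with the widest gap above and below both Hemin libraries, plus 24 key genes and up to 4 members of each list with the lowest p. Others are marked as chosen after their values were seen, and a few genes that the rule names are not reported here. The members and lists were chosen with earlier results of these data known. Promoter sequences are RefSeq windows of GRCm38.p6 with their own coordinates, and no coordinate of the deposited build was used. There were 18 alternatives, covering the pseudocount (0.1), filters, scaling, the replicate block, the libraries fitted, the variance trend and leaving out each library.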

Additional observations from a re-analysis of the deposited data

Results flagged for a closer look

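For 22 of the genes named above, both 4-OI libraries lay on one side of both DMSO libraries and both Hemin+4-OI libraries on the opposite side of both Hemin libraries. Many of the named genes had been picked for a low p or a wide gap under hemin. The share of all genes with this reversal was not counted, so the 22 have no background to be read against. With 4-OI alone, 20.2% of all genes lay above both DMSO libraries and 14.9% below both. The interaction tests whether the changes with 4-OI under hemin and without it differ. In limma with all libraries none of the 22 genes passed it, the lowest adjusted p of any gene being 0.853. Higher with 4-OI under hemin and lower without it were 15 genes. Their interactions, on the log2 scale, were 1.94 for Tmsb15b2, 0.33 for Tubb3, 0.58 for Elavl2, 0.62 for Maff, 0.63 for Ptgs2, 0.28 for Tfrc, 0.54 for Insig1 and 0.46 for Atp6v1h. The chaperone and stress genes among them had interactions of 0.64 (Dnajb1), 0.68 (Hspa1l), 0.33 (Stip1), 0.61 (Dnajb9) and 0.65 (Asns). The proteasome subunits Psmb1 and Psmd6 had 0.29 and 0.31. Dnajb1 illustrates the size, with 22.2 and 22.1 FPKM in DMSO, 20.3 and 20.6 in 4-OI, 49.5 and 75.8 in Hemin and 88.3 and 89.8 in Hemin+4-OI.

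Lower with 4-OI under hemin and higher without it were 7 genes, with interactions of -1.18 for Tmem216, -1.05 for Mettl26, -0.80 for Prdx6, -0.72 for Mt2, -0.65 for Ddx58, -0.55 for Sox9 and -0.53 for Mrgpra6. Mettl26 stood at 10.6 and 10.8 FPKM in DMSO, 12.04 and 14.4 in 4-OI, 14.5 and 14.5 in Hemin and 6.88 and 9.48 in Hemin+4-OI. Without Hemin replicate 1 the interaction of Mrgpra6 was -0.85 and passed, with an adjusted p of 0.0326 in limma.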

How the results depend on the processing

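No gene passed in Hemin+4-OI against Hemin in limma under the settings used or under 14 of the 18 alternatives, and the other 4 were no filter, no intensity trend and leaving out either Hemin library. Without any filter, and without the intensity trend, 2 genes were lower (Gm13304 and Gm10591, which have identical values), and without a filter 2 were lower in the interaction. Leaving out 1 library gave 0 to 1888 genes higher and 0 to 2638 lower, 0 to 1011 higher and 0 to 1604 lower in the interaction, and 0 to 2 higher in 4-OI against DMSO. The list members called were 0 to 127 higher and 0 to 227 lower. Nearly all of these calls came without Hemin replicate 2, that is, against replicate 1 alone. Genes above both Hemin libraries numbered 2998 to 5411 with 1 library left out, and genes below both 4035 to 6372, because fewer libraries have to be passed. With an FPKM minimum of 5, 9678 genes were tested and 1684 were below both. The count below both fell by a larger share than the count above both. The median log2 difference of all genes was then -0.004, against -0.029 under the settings used.

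The replicate numbers did not pair the libraries, since the deviations of the Hemin and Hemin+4-OI libraries correlated at -0.039 and those of other groups at -0.088 to 0.049. With a replicate block 0 genes passed and 1108 had an unadjusted p under 0.05.

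Of the 108 genes named, 17 changed sign in at least 1 alternative, all of them on leaving out a Hemin library. On leaving out 1 library the log2 difference ranged from -0.96 to 0.091 for Hmox1, -0.96 to 0.40 for Nqo1, -0.39 to 0.41 for Srxn1, -0.42 to 0.16 for Gclm, -0.027 to 0.087 for Slc7a11, -0.018 to 0.129 for Txnrd1, -0.75 to 0.15 for Fth1, -0.87 to 0.16 for Slc40a1, -0.41 to 0.24 for Gpx4, -0.29 to 0.12 for Keap1, -0.13 to 0.75 for Bach1 and -0.018 to 0.293 for Nfkbiz. It ranged from -0.188 to 0.093 for Acod1, -1.32 to 0.09 for Mt3, -0.759 to 0.067 for Malat1, -0.49 to 0.75 for Snord116l2 and -0.70 to 0.17 for Zfp781. Quantile normalization also turned Acod1 (0.069). Of the 32 list medians, 11 moved by more than the spread between libraries without Hemin replicate 1 and 16 without replicate 2, and 8 further moves, of the immediate-early, p53 and choroid plexus lists, came under other alternatives.

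With 2 libraries a group, a Hemin library that lies far from its replicate limits every comparison with Hemin. The depth is an estimate, and values under about 1 FPKM rest on few fragments.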

Other observations

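Genes of cilia were looked at after Rfx4, Tmem216 and Foxj1 had been seen below both Hemin libraries. By the words cilium or axoneme in the gene ontology terms of the deposited table, 355 tested genes qualified. Of these, 31 (8.7%) lay above both Hemin libraries and 104 (29.3%) below both, beside 14.5% and 20.3% of all genes. Their median log2 difference was -0.10, with -0.19 against Hemin replicate 1 and -0.04 against replicate 2. Pifo, which acts in cilium disassembly, stood at 3.34 and 1.80 FPKM in DMSO, 25.03 and 10.9 in Hemin and 7.57 and 5.53 in Hemin+4-OI. Ak7, an adenylate kinase of motile cilia, stood at 1.03 and 1.10, 9.38 and 6.86 and 4.42 and 3.83 in the same groups, and Armc3, an armadillo-repeat gene, at 0.41 and 0.54, 2.91 and 1.96 and 0.97 and 0.96. Armc3 reached the FPKM limit through the Hemin libraries alone, as did 4 of the 355 genes, and so had to be lower. These 3 genes were picked for their values, and in each, both Hemin libraries were above Hemin+4-OI, which was above DMSO. Choroid plexus and ependymal cells carry cilia, and the part of such cells in these levels was not tested.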
